A study of Mus musculus with 19 samples.

Results

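The classical major histocompatibility complex (MHC) class I pathway was described through 10 genes of 27179 in the deposited expression table, matched by symbol to a list of genes with known roles in it. No measured value entered that rule. They were the heavy chains H2-K1 and H2-D1, the light chain B2m, the peptide transporter subunits Tap1 and Tap2, the loading factor Tapbp, the immunoproteasome subunits Psmb8, Psmb9 and Psmb10, and the transactivator Nlrc5. All 10 had an RPKM (reads scaled to gene length and library size) of at least 0.5 in at least 4 mice and so passed the filter on low values, as did 14186 genes.

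RNA-seq was performed on splenocytes of 19 FCG mice (the core genotypes model of sex chromosome complement and gonads) immunized with heat-killed Streptococcus pneumoniae (HKSP), an avirulent strain without a capsule given intraperitoneally. The study turned to RNA-seq, made 1 week after immunization, to look at the dosage of X-linked genes, and none of the 10 class I genes is on the X chromosome. The groups were XX mice with ovaries (XXF, n = 5), XY mice with ovaries (XYF, n = 4), XX mice with testes (XXM, n = 5) and XY mice with testes (XYM, n = 5), with 1 library per mouse. All mice were immunized, so a level before immunization was not measured.

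The mice were bred from C57BL/6J females and males that carried the Y chromosome deletion dl1Rlb and the transgene Tg(Sry)2Ei on a B6 background. The model separates gonads from sex chromosomes, since its Y chromosome lacks the testis-determining gene Sry and chromosome 3 holds a transgenic copy. XYF mice thus carry the Y chromosome without Sry, XXM mice carry the Sry transgene without a Y chromosome, and XYM mice carry both. No age was found for the sequenced mice. Red cells had been lysed with ammonium chloride, and no cell type was sorted. In such bulk spleen cells, fewer cells of a type and less RNA per cell cannot be told apart. Library sizes were 14595054 to 17644855 reads in XXF, 11263753 to 19040738 in XYF, 12119957 to 18099717 in XXM and 15887402 to 19962022 in XYM. The 10 genes took 0.557% to 1.02% of the reads of a library, and the lowest read count of any of them in any mouse was 726, for Nlrc5 in XXM 2, so counting error was small beside the spread between mice.

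A pair of libraries stood apart from the rest. The mean of 6 neutrophil markers, each centred on all mice, was 3.04 in XYF F9 and 3.19 in XYM 9 on the log2 scale, against at most 0.79 in any other mouse. Their most abundant gene by mean RPKM was S100a9 (S100a8 was higher in XXF F1 and XYF F7), and none of the 6 was at 0 in any mouse. Results are therefore given with and without these mice where they move. Only the 5 XXM libraries have a title with an added tag, whose meaning is not stated, so whatever it stands for and the XXM group cannot be told apart. Each title also ends in a running number, lower in every male library than in any female library. Its meaning is not stated either, so whatever it stands for and gonadal sex cannot be told apart. A further measure set XYM libraries apart. In each mouse, the median centred log2 value of genes up to the lower quartile of length (1353 bases) was compared with that of genes from the upper quartile (3881 bases). The median of the short minus that of the long genes was -0.19, 0.39, 0.39, -0.018 and 0.042 in XXF, 0.41, 0.42, 0.13 and -0.038 in XYF, 0.40, 0.18, -0.065, -0.11 and -0.23 in XXM, -0.51, -0.42, 0.04, -0.56 and -0.22 in XYM. It was below -0.4 in XYM 12, 13 and 16, and above 0.3 in XXF F2 and F3, XYF F6 and F7 and XXM 2. Over 14186 genes, which are not independent, the difference between groups was related to gene length with Spearman's rho of -0.41 for XX minus XY in males, 0.38 for males minus females and 0.15 for XX minus XY in females. Gene length is therefore given beside the results, and values with the trend of each mouse on gene length removed are named as such. Whether RNA quality, library preparation or cell content set this trend was not tested.

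In class I presentation, proteasomes cut cytosolic proteins into peptides, a transporter of paired Tap1 and Tap2 subunits moves them into the endoplasmic reticulum, and tapasin, encoded by Tapbp, bridges the transporter to an empty heavy chain bound to beta-2 microglobulin. Interferons and infection lead cells to replace the constitutive catalytic subunits of the proteasome with the immunoproteasome subunits, which lymphoid cells also carry at rest. Nlrc5 acts at class I promoters and is known for its high level in lymphocytes, whereas its relative Ciita controls the class II genes that B cells and dendritic cells use to present peptides to helper T cells.

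Of the 10 genes, 7 lie on chromosome 17 in or beside the MHC region of the GRCm38 assembly. H2-K1 is at chr17:33996012-34000619, H2-D1 at chr17:35263094-35267497 and Tapbp at chr17:33919478-33929290. Psmb9 (chr17:34182030-34187330), Tap1 (chr17:34187556-34197225), Psmb8 (chr17:34198195-34201454) and Tap2 (chr17:34204479-34216321) follow each other in a single cluster. B2m is on chromosome 2 (chr2:122147687-122153082), and Psmb10 (chr8:105935728-105938392) and Nlrc5 (chr8:94434335-94527272) are on chromosome 8. None lies on a sex chromosome or on chromosome 3, which carries the Sry transgene.

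Promoter sequence is shown for a heavy chain and the light chain because these genes, on separate chromosomes, moved together over the mice as described further on. RefSeq promoters (GRCm38.p6) were matched for 8 of the 10 genes, all but Tap2 and Nlrc5. The 250 bases before the start were searched on both strands for AANNGAAA, the core of sites for interferon regulatory factors, GGGNNTTCC, a form of the NF-kappaB site, CCAAT, the box that nuclear factor Y binds, and TGACG, part of the cyclic AMP response element. The printed stretches hold no exon annotated in GENCODE and run from 150 to 2 bases before the start, 5′ to 3′, with every match in capitals. The first is at chr17:34000349-34000497 on the minus strand and the other at chr2:122147537-122147685 on the plus strand. The promoter sequences include 2 starts for H2-K1, and of these the one farther upstream was used. Its stretch lies inside the RefSeq coordinates given above for the gene, so RefSeq has a transcript that begins upstream of it.
H2-K1: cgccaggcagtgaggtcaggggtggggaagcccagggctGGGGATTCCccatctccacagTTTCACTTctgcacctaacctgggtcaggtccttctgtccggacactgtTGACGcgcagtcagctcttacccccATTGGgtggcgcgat
B2m: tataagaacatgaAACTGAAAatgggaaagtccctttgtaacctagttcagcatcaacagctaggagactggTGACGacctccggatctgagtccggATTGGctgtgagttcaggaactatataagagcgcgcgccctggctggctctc
The capitals in the first stretch are, in order, the NF-kappaB form, the interferon regulatory factor core on the other strand, the cyclic AMP element part and the CCAAT box on the other strand. The capitals in the B2m stretch are the interferon regulatory factor core, the cyclic AMP element part and the CCAAT box, again in that order and without the NF-kappaB form. In its own 250 bases H2-D1 also held all 4 motifs. AANNGAAA was found in 3 of the 8 promoters, against 21.3% of 32851 promoters of the same length, and GGGNNTTCC in 2, against 4.98%. CCAAT was found in 6, against 33.8%, and TGACG in 5, against 17.8%. The windows of Tap1 and Psmb9 are largely the same DNA on opposite strands, so a single CCAAT box and a single TGACG are counted for both genes. The GGGNNTTCC matches were in H2-K1 and H2-D1, and the AANNGAAA matches in these genes and B2m. H2-K1 and H2-D1 hold both motifs within nearly the same sequence, so these related genes are not independent counts. The whole windows of H2-D1, Psmb8, Psmb9 and Tap1 lie in annotated exons. A match is a description of letters and not a site in use.

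**Figure D1:**
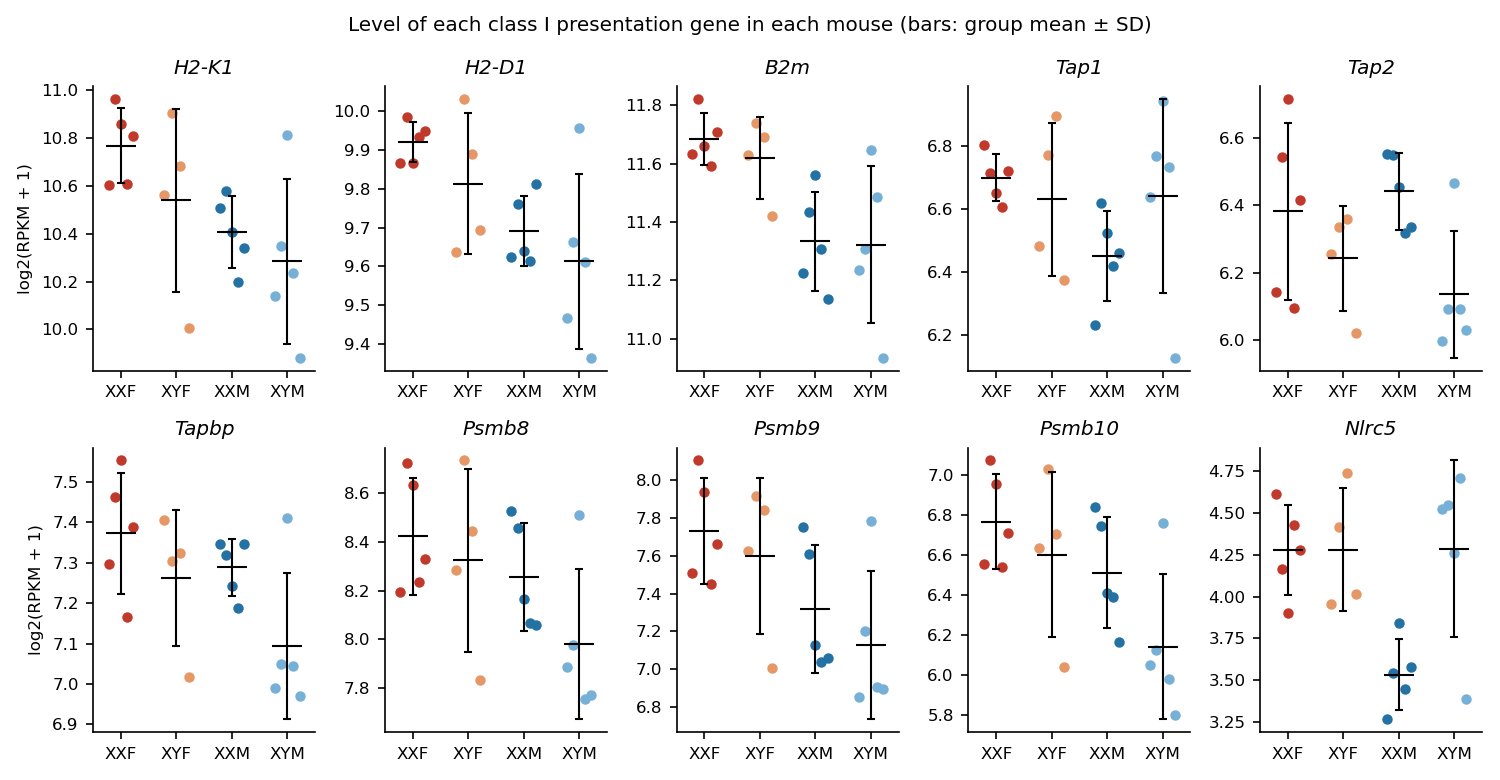
Deposited log2(RPKM + 1) of each of the 10 class I presentation genes in each mouse, by group on the x axis, with a separate y axis for each gene. Points are mice and bars are the group mean ± SD. Nlrc5 lies at 3.27 to 3.84 in the XXM mice, below every XXF mouse.

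The class I genes were among the most abundant in the spleen cells. Per length, B2m had a median RPKM of 3023 over the 19 mice and ranked 18 by mean RPKM among 14186 genes, H2-K1 had 1512 (rank 38) and H2-D1 867 (rank 68). The immunoproteasome and loading genes lay lower, with a median RPKM of 300.2 for Psmb8, 181 for Psmb9, 157 for Tapbp, 98.6 for Tap1, 92.9 for Psmb10 and 79.7 for Tap2. Nlrc5 was the least abundant of the 10 at 17 (rank 5180), still above the median of 9.58 over all genes tested. The sum of the H2-K1 and H2-D1 RPKM values was 0.677 to 0.976 of that of B2m, so the light chain was the more abundant transcript in every mouse. The group means of H2-K1, H2-D1, B2m, Psmb8, Psmb9 and Psmb10 stood in the order XXF, XYF, XXM, XYM from high to low, and the mice of neighbouring groups overlapped for each of these genes. The order was XXF, XYM, XYF, XXM for Tap1, XXM, XXF, XYF, XYM for Tap2 and XXF, XXM, XYF, XYM for Tapbp, again with overlap of all neighbours.

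Part of the sequence of some members is shared with other genes, so their values are uncertain to that extent, since it was not found how the counting treated reads with several matches. Of the 51-base windows in its protein-coding transcripts, H2-D1 shared 13.3% and H2-K1 6.41% with other annotated genes, mostly further class I genes such as H2-Q1 and H2-Q7. The heavy chains also shared windows with each other, 5.06% of those of H2-K1 and 5.23% of those of H2-D1. Tapbp shared 22.2%, of which most lay in the antisense gene Gm19412. Tap1 and Psmb9 share 212 exon bases on opposite strands, and exons of Tap2, Psmb8 and Nlrc5 also overlap antisense transcripts by 533, 498 and 78 bases. Strand use in counting was not found either, so reads of such partners cannot be told apart. B2m and Psmb10 shared no window, and neither did Nlrc5.

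The comparison of males with females, taken over both sex chromosome complements, asked how the pathway differed between mice with testes and mice with ovaries. All 10 genes were lower in males, with a median log2 difference of -0.28 against 0.02 over all genes tested, where 47.5% of genes were below 0. The exceptions to this direction over 30 fits were Tap2 (0.053) and Tapbp (0.0051) under quantile normalization, where the median of the 10 was -0.14, and Tap2 (0.018) without XXF F3. None of the 10 was called at an adjusted p under 0.1 together with a fold of over 1.5 (limma, Benjamini-Hochberg), a rule that called 7.32% of all genes (1.96% higher and 5.36% lower), and 6 of 10 had an unadjusted p under 0.05, as did 41.7% of all genes. By adjusted p alone, 6 of 10 passed, all lower. Over all genes that rule passed 38.5%, with 18.1% lower and 20.5% higher. These 6 were both heavy chains, the light chain, Psmb9, Psmb10 and Nlrc5, while the transporter and tapasin genes did not pass.

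**Figure D2:**
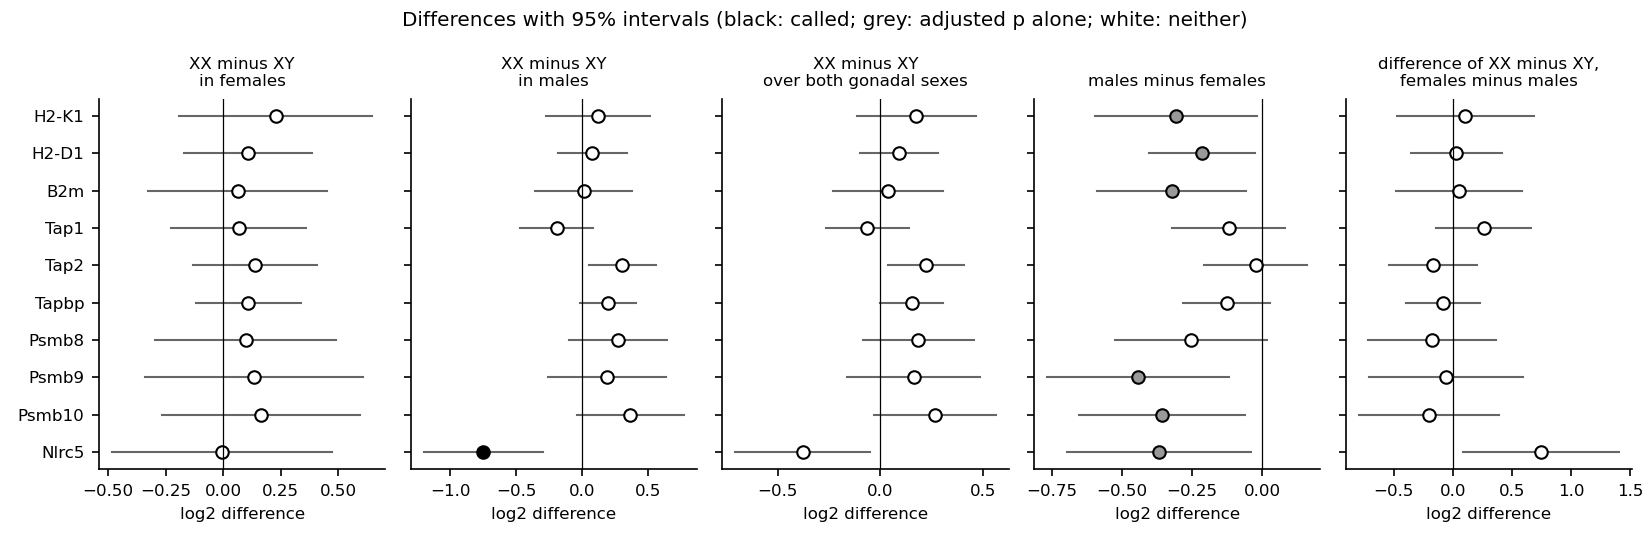
Log2 difference of each class I presentation gene in the 5 comparisons, as points with 95% intervals. Black points were called (adjusted p under 0.1 and over 1.5-fold), grey points passed by adjusted p alone and white points did neither (limma, Benjamini-Hochberg). The only black point is Nlrc5 for XX minus XY in males (-0.75), and 6 points are grey for males minus females.

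H2-K1, a heavy chain that presents peptides to CD8+ T cells, stood at log2(RPKM + 1) values of 10.61, 10.96, 10.86, 10.61 and 10.81 in XXF, 10.56, 10.90, 10.68 and 10.01 in XYF, 10.51, 10.58, 10.41, 10.20 and 10.34 in XXM, 10.14, 10.35, 10.81, 10.24 and 9.88 in XYM. The lowest values belonged to XYM 9 and XYF F9, the mice with the highest neutrophil markers, and XYM 15 lay within the range of the XXF mice, so the groups overlapped. The males minus females difference was -0.31 (SE 0.14, 9 of 10 males below the female mean of the same complement, limma, Benjamini-Hochberg adjusted p = 0.0986). It was -0.35 (adjusted p = 0.035 by limma with Benjamini-Hochberg) without XYF F9 and XYM 9, -0.25 (adjusted p = 0.1, not below the threshold) with the trend on gene length removed and -0.14 (adjusted p = 0.348) under quantile normalization, and it passed in 14 of 30 fits. H2-D1, the other heavy chain, ranged from 9.36 to 10.03 and differed by -0.22 (SE 0.091, 9 of 10 males, limma, Benjamini-Hochberg adjusted p = 0.0822). The H2-D1 values of the XXF mice were close together (mean 9.92 ± 0.052 SD, n = 5), whereas those of XYM had an SD of 0.23.

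B2m, without which class I heavy chains do not reach the cell surface, had log2(RPKM + 1) values of 11.63, 11.82, 11.66, 11.59 and 11.71 in XXF, 11.63, 11.74, 11.69 and 11.42 in XYF, 11.23, 11.44, 11.56, 11.31 and 11.14 in XXM, 11.24, 11.31, 11.65, 11.49 and 10.93 in XYM. XXM 5, XXM 6, XYM 15 and XYM 16 lay above XYF F9, the lowest female, and XYM 9 was the lowest of all mice. B2m differed by -0.32 in males minus females (SE 0.13, 9 of 10 males, limma, Benjamini-Hochberg adjusted p = 0.0634). B2m is a short transcript of 858 bases. With the trend on gene length removed its difference was -0.15 and did not pass (limma, Benjamini-Hochberg adjusted p = 0.311). Under quantile normalization the B2m difference was -0.097, and its highest adjusted p over the 30 fits was 0.644 (limma, Benjamini-Hochberg). Its place among the genes that passed thus depended on the processing. Over the 30 fits the adjusted p was under 0.1 in 15 for H2-D1, 24 for B2m, 24 for Psmb10 and 17 for Nlrc5 (limma, Benjamini-Hochberg).

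Among the transporter and loading genes, Tap1 stood at log2(RPKM + 1) values of 6.13 to 6.94, Tap2 at 6.0 to 6.72 and Tapbp at 6.97 to 7.55. The males minus females difference was -0.12 for Tap1 (95% interval -0.32 to 0.083), -0.024 for Tap2 (-0.21 to 0.16) and -0.13 for Tapbp (-0.28 to 0.029). None of the 3 passed (adjusted p of 0.359, 0.855 and 0.201 with 6 of 10, 6 of 10 and 9 of 10 males below, limma with Benjamini-Hochberg), and each interval holds 0.

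Psmb9, an inducible catalytic subunit encoded beside Tap1, had the largest difference between males and females of the 10 genes under the deposited scaling. Its values were 7.51, 8.11, 7.94, 7.45 and 7.67 in XXF, 7.63, 7.92, 7.84 and 7.01 in XYF, 7.75, 7.61, 7.13, 7.04 and 7.06 in XXM, 6.85, 7.20, 7.79, 6.90 and 6.89 in XYM. Most males lay below the females, but XXM 2, XXM 5 and XYM 15 lay within their range and XYF F9 lay among the males. The difference was -0.44 (SE 0.16, 95% interval -0.77 to -0.12, 8 of 10 males, limma, Benjamini-Hochberg adjusted p = 0.0405), a fold of 0.735 on the log2(RPKM + 1) scale. Psmb9 was the only member whose adjusted p stayed under 0.1 in all 30 fits made for this comparison (0.00636 to 0.0819, limma with Benjamini-Hochberg). With the trend on gene length removed, its difference was -0.26.

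Psmb10, the inducible partner encoded away from the MHC, stood at 6.55, 7.07, 6.95, 6.54 and 6.71 in XXF, 6.63, 7.03, 6.70 and 6.04 in XYF, 6.84, 6.74, 6.41, 6.39 and 6.16 in XXM, 6.05, 6.12, 6.76, 5.98 and 5.80 in XYM. The lowest value was again that of XYM 9, and XYM 15 stood above the other XYM mice. The males minus females difference was -0.36 (SE 0.14, 8 of 10 males, limma, Benjamini-Hochberg adjusted p = 0.0641). Psmb8, which completes the inducible set, ranged from 7.76 to 8.73 and its difference of -0.26 did not pass (7 of 10 males, limma, Benjamini-Hochberg adjusted p = 0.141). Without XYF F9 and XYM 9 the Psmb8 difference was -0.31 and passed (limma, Benjamini-Hochberg adjusted p = 0.0607), as it did in 5 of 30 fits.

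The comparison of XX with XY mice asked how the sex chromosome complement moved the same genes. In females 9 of the 10 differences were above 0, but none was called or had an unadjusted p under 0.05 (limma), against 18.7% of all genes, while 1.38% of all genes were called. The median difference was 0.11 against 0.06 over all genes, and the lowest adjusted p was 0.536 for H2-K1 (log2 difference 0.23, XX higher in 5 of 5 mice, limma with Benjamini-Hochberg). Over both gonadal sexes none of the 10 was called either, against 1.72% of all genes, and 2 had an unadjusted p under 0.05, against 22.8% of all genes. These were Tap2, which was higher in XX mice by 0.22 (8 of 10 mice, limma, Benjamini-Hochberg adjusted p = 0.152), and Nlrc5, which was lower by a log2 difference of -0.38 (8 of 10 mice, limma, Benjamini-Hochberg adjusted p = 0.168). Both missed the threshold. The direction in females rested in part on XYF F9. Without XYF F9 and XYM 9, B2m (-0.0032), Tap1 (-0.018), Psmb8 (-0.065), Psmb9 (-0.062) and Psmb10 (-0.022) were below 0 in females. Under median ratio rescaling B2m (-0.0081) and Tap1 (-0.003) were below 0, under array weights Tap1 (-0.012), Psmb8 (-0.04) and Psmb9 (-0.04), and with the length trend removed Tap1 (-0.0054). No direction is therefore given for these 5.

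In males 1 of the 10 was called, against 2.96% of all genes (1.83% in the lower direction), a count too small to set the list apart from that background. That gene was Nlrc5, known as a transactivator of class I genes. Its log2(RPKM + 1) values were 4.61, 4.17, 3.90, 4.43 and 4.28 in XXF, 3.96, 4.41, 4.74 and 4.01 in XYF, 3.27, 3.54, 3.84, 3.45 and 3.58 in XXM, 4.52, 4.55, 4.26, 4.71 and 3.39 in XYM. All 5 XXM mice lay below 3.9, every XXF mouse was above every XXM mouse, and 4 of the 5 XYM mice were above 4.2 with XYM 9 alone among the XXM values. The group means were 4.29 ± 0.53 (SD, n = 5) in XYM, 4.28 ± 0.37 (n = 4) in XYF, 4.28 ± 0.27 (n = 5) in XXF and 3.54 ± 0.21 (n = 5) in XXM. In this order the first 3 groups overlapped, and XXF and XXM did not.

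The XX minus XY difference of Nlrc5 in males was -0.75 (SE 0.22, 95% interval -1.20 to -0.30, 5 of 5 XXM mice below the XYM mean, limma, Benjamini-Hochberg adjusted p = 0.0783), a fold of 0.595. In females it was -0.0041 (-0.48 to 0.48). The test of the difference between these effects gave 0.75 (SE 0.31, unadjusted p = 0.0286, limma, Benjamini-Hochberg adjusted p = 0.191) and so did not pass, in a comparison that called 0.0846% of all genes and 0 of the 10, with 1 unadjusted p under 0.05 (against 21% of all genes). The males minus females difference of Nlrc5 was -0.37 (7 of 10 males, limma, Benjamini-Hochberg adjusted p = 0.0845), and the mean in XX mice was 3.54 in XXM and 4.28 in XXF. In XY mice the means were 4.29 in XYM and 4.28 in XYF.

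These Nlrc5 values moved with both measures that set libraries apart. Without XYF F9 and XYM 9 the difference in males was -0.97 (limma, Benjamini-Hochberg adjusted p = 0.00614), the difference over both gonadal sexes was -0.53 (adjusted p = 0.0329, limma with Benjamini-Hochberg) and the test between females and males passed at 0.88 (adjusted p = 0.0857, limma with Benjamini-Hochberg). Nlrc5 is long, at 6945 bases, and 768 genes of 6000 to 8000 bases had a median XX minus XY difference of -0.23 in males. With the trend on gene length removed, the difference in males was -0.54 and no longer over 1.5-fold (limma, Benjamini-Hochberg adjusted p = 0.0968), the test between females and males gave 0.39 (adjusted p = 0.401), and the males minus females difference was -0.55 (adjusted p = 0.00319). The direction in males was the same in all 31 fits, with adjusted p from 0.00183 to 0.204. The call in males was lost when XYM 12, XYM 13, XYM 16, XXM 2, XXM 5, XXM 6 or XXF F5 was left out in turn. In these fits the difference stayed at -0.64 to -0.83, and the adjusted p was 0.101 to 0.204 (limma, Benjamini-Hochberg, 18 mice).

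Of the other 9 members in males, only Tap1 was below 0 together with Nlrc5, and 8 were above 0 in XXM minus XYM as deposited, with log2 differences of up to 0.37 for Psmb10 (5 of 5 mice, limma, Benjamini-Hochberg adjusted p = 0.222) and 0.31 for Tap2 (5 of 5 mice, limma, Benjamini-Hochberg adjusted p = 0.13), and the median over the 10 was 0.16 against 0.0064 for all genes. Tap1 was at -0.19 (5 of 5 mice, limma, Benjamini-Hochberg adjusted p = 0.341), and without XYF F9 and XYM 9 it was -0.32 (limma, Benjamini-Hochberg adjusted p = 0.0679). Under the removal of the length trend H2-K1, H2-D1, B2m and Psmb9 also turned below 0 in males, and under quantile normalization B2m was at -0.13, H2-K1 at -0.10 and H2-D1 at -0.063. B2m was also below 0 without XXM 5, XXM 6, XYM 12 or XYM 9, so no direction is given for H2-K1, H2-D1, B2m or Psmb9 in males.

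**Figure D3:**
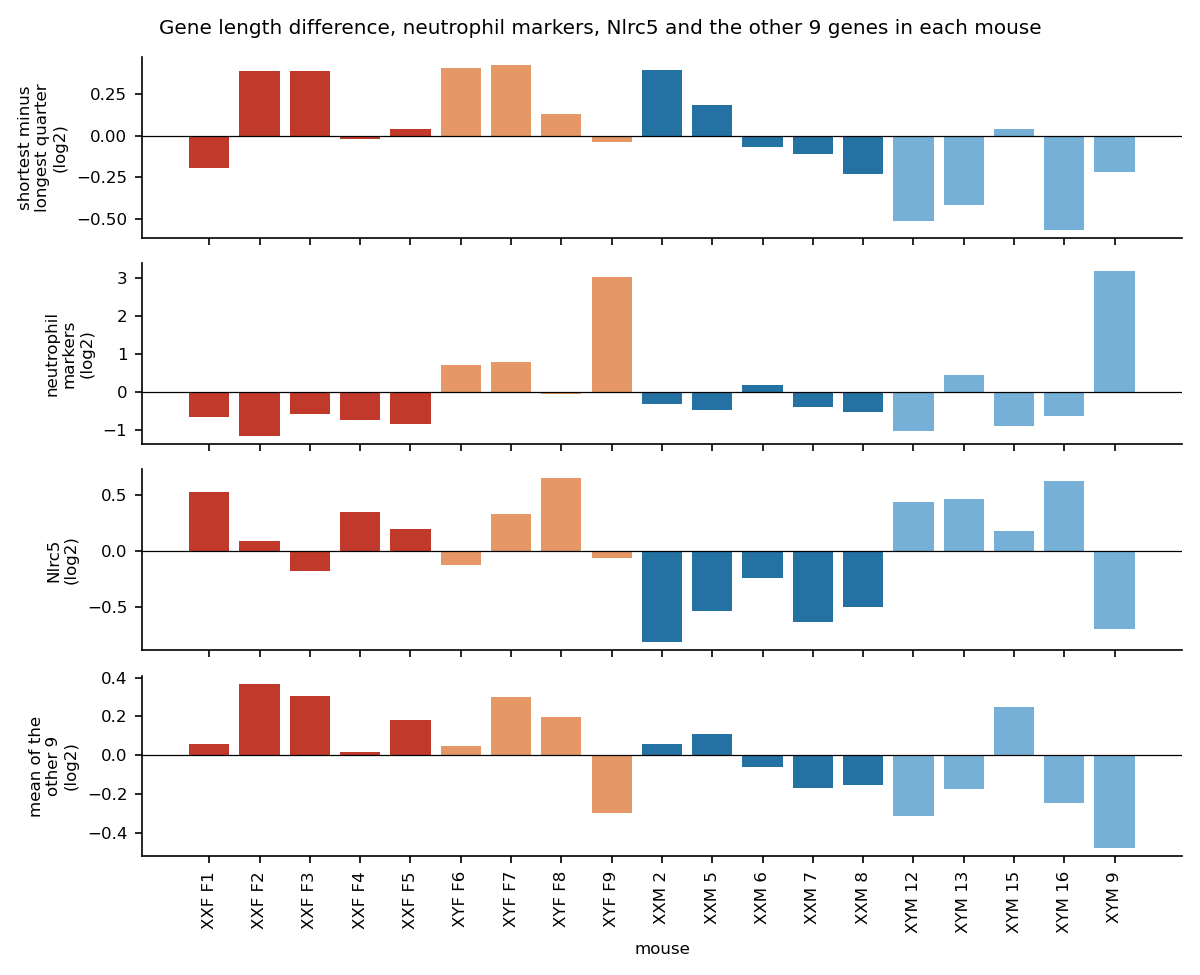
For each of the 19 mice, coloured by group, bars give the median of genes up to 1353 bases minus that of genes from 3881 bases, the mean of 6 neutrophil markers, Nlrc5 and the mean of the other 9 class I genes, all as log2 values centred on all mice. XYF F9 and XYM 9 have the high neutrophil bars (3.04 and 3.19), and all 5 XXM mice have Nlrc5 bars below 0.

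Ratios within a mouse do not depend on how its library was scaled. The log2 ratio of Nlrc5 to Ciita, the transactivators of class I and class II, was -0.99, -0.26, -0.21, -0.64 and -0.41 in XXF, -0.018, -0.23, -0.28 and -0.34 in XYF, -1.31, -1.51, -1.23, -1.86 and -1.62 in XXM, -1.56, -1.20, -0.95, -1.29 and -1.57 in XYM. Every XXM mouse was below every XXF mouse and every XYM mouse below every XYF mouse, although XYM 15 at -0.95 lay above XXF F1 at -0.99. The males minus females difference was -1.05 (10 of 10 males below the female mean of the same complement, exact two-sided permutation p = 3.15e-05, the smallest that 31752 arrangements can give, and 0.00063 after Benjamini-Hochberg adjustment over 20 tests). Ciita itself was higher in males by 0.63 (SE 0.20, 9 of 10 males, limma, Benjamini-Hochberg adjusted p = 0.0254). In XY mice, where the group means of Nlrc5 were alike, that of Ciita was 5.55 in XYM and 4.49 in XYF. In XX mice Ciita was at 4.96 in XXM and 4.76 in XXF, with Nlrc5 lower in XXM. B cell markers were also higher in males than in females. Among males, however, the mean of the 6 centred B cell markers was higher in XXM (0.41) than in XYM (0.18), unlike Ciita. The part of B cells in the result was not tested.

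The ratios of the inducible proteasome subunits to the constitutive ones they replace did not pass in any of the 4 comparisons with all mice (exact two-sided permutation tests, adjusted p of at least 0.329). Psmb8 was the more abundant in every mouse, with a geometric mean ratio to Psmb5 of 8.26 in XXF, 7.94 in XYF, 8.72 in XXM and 9.26 in XYM. Psmb9 stood at 1.52 (XXM) to 1.90 (XXF) times Psmb6, and Psmb10 at 0.796 (XYF) to 0.964 (XXF) times Psmb7. The lowest unadjusted p among these was 0.0556 (exact permutation) for Psmb9 to Psmb6 in XXM minus XYM, at a log2 difference of -0.29 in 5 of 5 mice. Without XYM 9, and so also without XYF F9 and XYM 9, this ratio did pass, at -0.37 (5 XXM and 4 XYM mice, exact two-sided permutation, Benjamini-Hochberg adjusted p = 0.0794). H2-K1 stood at 1.59 to 1.80 times H2-D1 in the group means, with no comparison past the threshold.

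Of 18 proteasome genes for constitutive catalytic, core and activator subunits, all 18 were below 0 in males minus females and 12 passed by adjusted p (limma, Benjamini-Hochberg), all lower and none over 1.5-fold, so none was called, with a median of -0.32. Of all genes 18.1% passed as lower in that comparison. Psmb4 differed by -0.45 (8 of 10 males, limma, Benjamini-Hochberg adjusted p = 0.0884), and Psma7 by -0.43 (8 of 10 males, limma, Benjamini-Hochberg adjusted p = 0.00635). Psme2, a subunit of the interferon-inducible activator, differed by -0.43 (8 of 10 males, limma, Benjamini-Hochberg adjusted p = 0.0483). With the length trend removed, 8 of the 18 passed with a median of -0.19, and without XYF F9 and XYM 9, 16 passed with a median of -0.39. In XX minus XY over both gonadal sexes none of the 18 passed (limma, 0 with an unadjusted p under 0.05), and the median was 0.12, with Psmb4 at 0.28, Psmb1 at 0.26 and Psmb3 at 0.24 the farthest from 0. In XX minus XY in males 1 passed, the core subunit Psmb2 (0.31, 5 of 5 mice, limma, Benjamini-Hochberg adjusted p = 0.0863), against 7.86% of all genes. There 17 of the 18 were above 0 with a median of 0.30, in the comparison where genes up to 1353 bases had a median of 0.20.

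Of the 8 genes of peptide loading and trimming, 1 passed in males minus females, the disulfide isomerase Pdia3 of the loading complex (-0.21, 9 of 10 males, limma, Benjamini-Hochberg adjusted p = 0.0559), and the list median was 0.026. Tapbpl, a relative of tapasin, was at -0.20 and Uggt1, which monitors the folding of glycoproteins, at 0.24, and neither passed. Ganab, Calr and Uggt1 had the largest XX minus XY differences of the list over both gonadal sexes, at -0.23, -0.18 and -0.14, and did not pass. Among the nonclassical class I genes, 14 of 15 were tested (H2-T3 was too low), and 3 passed as lower in males, near the 18.1% of all genes. H2-Q7, whose product can be tethered by a lipid anchor, differed by -0.57 (9 of 10 males, limma, Benjamini-Hochberg adjusted p = 0.0071), H2-Q10 by -0.47 (10 of 10 males, limma, Benjamini-Hochberg adjusted p = 0.0685) and H2-T22 by -0.31 (9 of 10 males, limma, Benjamini-Hochberg adjusted p = 0.0368). The list median was -0.073. Cd1d1, which presents lipids to natural killer T cells, was higher in XX mice and was called in females (0.60, 5 of 5 mice, limma, Benjamini-Hochberg adjusted p = 0.0583) and over both gonadal sexes (0.59, 10 of 10 mice, limma, Benjamini-Hochberg adjusted p = 0.00321). H2-Q10 and H2-M2 came next in size over both gonadal sexes, at 0.45 and 0.27, without passing.

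Most regulators of class I transcription that passed were higher in males than in females. Of 15 genes, 7 passed as higher in males and 1 as lower (limma, Benjamini-Hochberg), with a median of 0.22. Over all genes 20.5% passed as higher and 18.1% as lower. Genes from 3881 bases had a median of 0.16 in this comparison. Values with the length trend removed are not given for this list, and the part of gene length in its direction was not tested. Rfx5, a subunit of the factor that binds the promoters of both MHC classes, was called higher (0.59, 9 of 10 males, limma, Benjamini-Hochberg adjusted p = 0.00307). Irf8, abundant in B cells and dendritic cells, was higher by 0.58 (9 of 10 males, limma, Benjamini-Hochberg adjusted p = 0.0108), and Irf2 by 0.47 (10 of 10 males, limma, Benjamini-Hochberg adjusted p = 0.00157). Stat2 and Rfxap were at -0.20 and 0.20 in XX minus XY over both gonadal sexes and did not pass.

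Among the pathway lists, interferon response genes held the largest differences between males and females. Of 18 genes, 6 were called lower in males, 8 passed as lower and 3 as higher by adjusted p (limma, Benjamini-Hochberg), and the median was -0.29. Over all genes 5.36% were called lower, 18.1% passed as lower and 20.5% as higher. The median was -0.16 for genes up to 1353 bases and 0.16 for those from 3881 bases. Values with the length trend removed are not given for this list either. Isg15, a ubiquitin-like protein, was lower by a log2 difference of -1.66 (10 of 10 males, limma, Benjamini-Hochberg adjusted p = 0.000132), and Ifit1, which binds foreign RNA, by -1.05 (10 of 10 males, limma, Benjamini-Hochberg adjusted p = 3.55e-05). The interferon-gamma target Cxcl9, a chemokine for T cells, was at -0.89 (10 of 10 males, limma, Benjamini-Hochberg adjusted p = 0.000454). The GTPases Igtp and Gbp2 were at -0.80 and -0.74 and the transcription factor Irf7 at -0.68, each in 10 of 10 males. Over both gonadal sexes Irf7 and Mx1 were lower in XX mice by log2 differences of -0.52 and -0.52 (10 of 10 and 9 of 10 mice, limma with Benjamini-Hochberg, adjusted p = 0.0431 and 0.0901), below the fold of the call rule, and Ifit1 was at -0.38 and did not pass.

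Class II presentation genes went the other way. All 7 passed as higher in males, with a median of 0.49 (limma, Benjamini-Hochberg), and 2 were called. Over all genes 20.5% passed as higher and 1.96% were called higher. H2-DMb1, part of the class II peptide editor, was at 0.71 (10 of 10 males, limma, Benjamini-Hochberg adjusted p = 8.19e-05), while Ciita has been given with its ratio. Cd74, the invariant chain, was at 0.51 (10 of 10 males, limma, Benjamini-Hochberg adjusted p = 0.0372). In XX minus XY over both gonadal sexes, H2-Ab1 was at 0.57 (10 of 10 mice, limma, Benjamini-Hochberg adjusted p = 0.0677), and H2-Eb1 and Cd74 at 0.44 and 0.45. Under the length removal the median of the 7 in males minus females was 0.60, and without XYF F9 and XYM 9 it was 0.44. The directions of the proteasome and class II lists held for every gene under quantile normalization and median ratio rescaling, with medians of -0.22 and -0.34 for the 18 and of 0.66 and 0.47 for the 7.

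**Figure D4:**
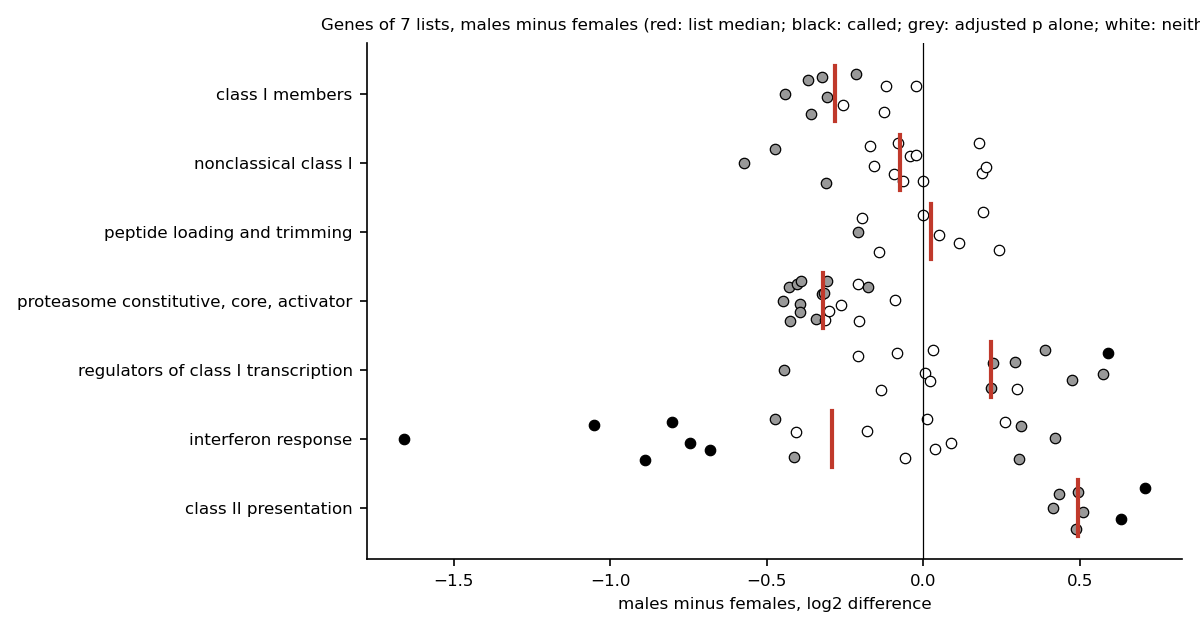
Males minus females log2 difference of each tested gene in the class I members and 6 further lists, 1 list per line, with the vertical spread added only to part the points. Red lines are list medians, black points were called, grey points passed by adjusted p alone. The class I and proteasome medians are at -0.28 and -0.32 and the class II median at 0.49.

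Markers of the cell types in the spleen moved between the same groups. All 6 T cell markers were tested and 5 were called lower in males (median -1.02, limma with Benjamini-Hochberg), and Cd2 was the most abundant. Their summed RPKM was 816, 1224, 1054, 859 and 1037 in XXF, 796, 1073, 821 and 414 in XYF, 535, 591, 583, 465 and 433 in XXM, 525, 470, 681, 562 and 316 in XYM. B cell markers were higher in males, with 4 of 6 called and a median of 0.63, and Cd79b was the most abundant. Their summed RPKM was 2716, 2654, 2307, 2591 and 2558 in XXF, 1460, 2387, 2453 and 1236 in XYF, 3691, 4046, 3571, 3680 and 3341 in XXM, 3323, 2806, 3557, 3162 and 2058 in XYM. All males lay below the females other than XYF F9 in T cell markers, and all but XYM 9 lay above every female in B cell markers. Of the dendritic cell markers 3 of 6 were called higher in males, led in level by Itgax, with a summed RPKM of 34.0, 24.8, 24.5, 35.5 and 28.5 in XXF, 27.3, 26.5, 42.9 and 40.0 in XYF, 51.2, 52.7, 63.0, 59.1 and 76.2 in XXM, 54.1, 72.3, 55.1, 52.9 and 43.7 in XYM. Erythroid markers, led by Hbb-bs, were called lower in males for 5 of 5 tested genes (Ahsp was not in the table), with a summed RPKM of 11401, 17495, 24794, 20419 and 14466 in XXF, 43575, 17835, 14125 and 32665 in XYF, 10290, 8296, 6279, 6394 and 12652 in XXM, 2047, 6127, 4460, 1356 and 13158 in XYM. None of these markers was at 0 in any mouse, and their part in the lower class I values of males was not tested. In XX minus XY in males, where Nlrc5 was called, 1 marker each of B cells (Pax5), dendritic cells (Siglech) and erythroid cells (Hba-a1) was called higher in XXM.

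Natural killer cell markers differed with the sex chromosomes, with 3 of 6 called higher in XX mice in females, 2 in males and 3 over both, and with 1 called lower in males than in females. Their summed RPKM, led by Gzma on average over the mice, was 539, 673, 626, 705 and 689 in XXF, 311, 439, 319 and 165 in XYF, 538, 435, 456, 454 and 400 in XXM, 288, 279, 419, 223 and 136 in XYM. Among XX mice every XXF mouse was above every XXM mouse. The lowest sums were in XYF F9 and XYM 9. Neutrophil markers gave no call in any comparison (0 of 6, limma, with 5, 0, 5 and 0 unadjusted p under 0.05 in females, in males, over both and in males minus females), and their summed RPKM was 4594, 3813, 5199, 5027 and 4393 in XXF, 12989, 16567, 7979 and 55830 in XYF, 6614, 5659, 7434, 4969 and 4375 in XXM, 3181, 9328, 4061, 3950 and 57843 in XYM. Those sums show the distance of XYF F9 and XYM 9 from the rest, and these mice also had the highest sums of the monocyte and macrophage markers (3520 and 3364, led by Lyz2), against 709 to 1785 in the others. Of that list 1 of 6, Cd14, was called lower in males. The part of these cells in the Nlrc5 result was not tested, but its size without both mice has been given.

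Plasma cell markers, led by Jchain, had a summed RPKM of 546 to 1648, with 1 of 6 called lower in XX females (Tnfrsf17) and 1 called higher in males (Irf4). Pancreas markers summed to 5.71 to 24.2 with Cela1 the most abundant, 3 of 6 were tested and 1 (Cela1) was called lower in males. Cpa1, Amy2a5, Pnlip and Ctrb1 were listed at 0 in some mice. Stroma markers summed to 0.10 to 0.73, led by Pdgfrb, none of the 4 passed the filter, and Col1a1, Col3a1 and Dcn were at 0 in some mice. The genes used by every cell, led by Actb, summed to 3674 to 6085 and none of 6 was called in any comparison (limma, 2 higher and 2 lower by adjusted p in males minus females), with a median males minus females difference of -0.029.

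Over the mice, most pairs of members other than Nlrc5 moved together, those of Tap1 less steadily. Correlations were computed on deviations from the group means over 19 mice for all 45 pairs, with 100000 permutations within groups and Benjamini-Hochberg adjustment over the 45. Among the 36 pairs without Nlrc5, Pearson's r was 0.385 to 0.980 (median 0.770) and 31 had an adjusted p under 0.1. No share for pairs of genes outside the list is given. With XYF F9 and XYM 9 left out, every r of Tap1 in these pairs fell. It was then 0.20 with Tapbp, 0.23 with Psmb10, 0.26 with Tap2 and 0.27 with Psmb8 and Psmb9. With H2-K1 it was 0.46, with B2m 0.57 and with H2-D1 0.68. The closest pair was Psmb8 and Psmb10, on separate chromosomes (r = 0.98, permutation p = 1e-05, the smallest the permutations can give, Spearman's rho = 0.95, permutation p = 1e-05, adjusted p = 0.000112 for r and 0.00018 for rho). Without the 2 mice farthest in Psmb8, XYF F7 and XYM 15, r was 0.97. H2-K1 followed the mean of the other 9 most closely, with r = 0.98 on the same deviations, and Nlrc5 least, with r = 0.21.

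Nlrc5 gave r from -0.135 to 0.791 (median 0.063) in its 9 pairs, and 2 had an adjusted p under 0.1. These were B2m, at r = 0.55 (permutation p = 0.073, adjusted p = 0.0996), which fell to 0.071 without XYF F9 and XYM 9, and Tap1. Its correlation with Tap1 was r = 0.79 (permutation p = 0.00548, adjusted p = 0.013) with rho = 0.66 (permutation p = 0.00939, adjusted p = 0.0201). Without the 2 mice farthest in Tap1, XYM 15 and XYM 9, r was 0.75, and without XYF F9 and XYM 9 it was 0.51. Its pairs with Tapbp, Psmb8, Psmb9 and Psmb10 were near 0 and reached r of -0.47 to -0.62 without XYF F9 and XYM 9. The library trend on gene length was not removed from these correlations.

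**Figure D5:**
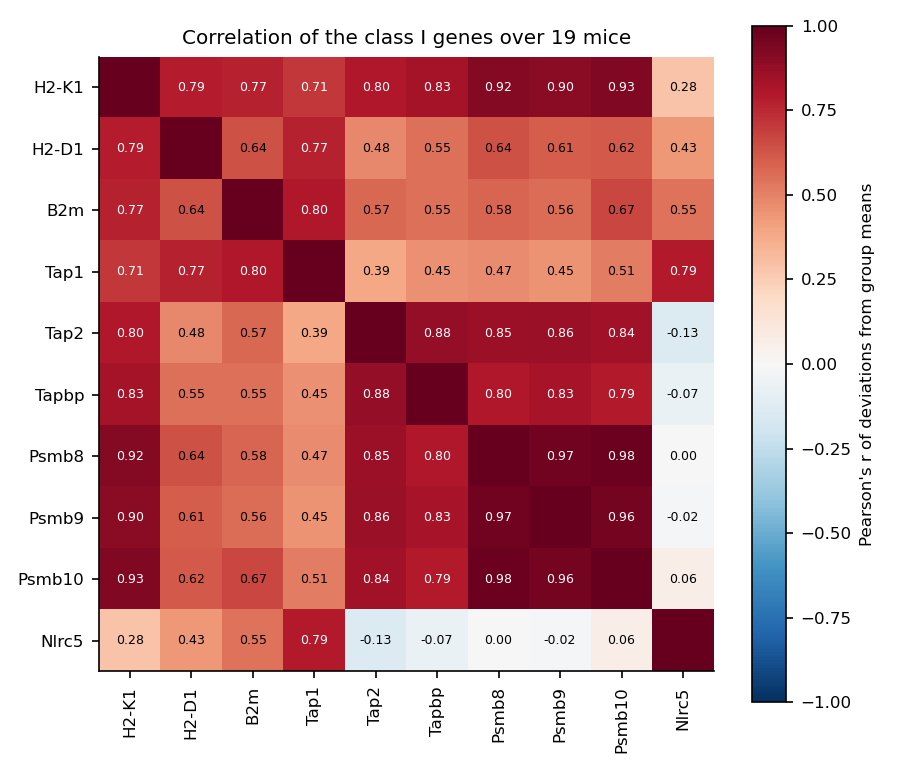
Pearson's r between the class I presentation genes over 19 mice, on deviations from the group means, with the value written in each cell and the colour from -1 (blue) to 1 (red). The pairs of Psmb8, Psmb9 and Psmb10 lie at 0.96 to 0.98, and the row of Nlrc5 is near 0 apart from Tap1 (0.79) and the heavy and light chains.

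The mean of the 10 genes, each centred on all mice, was 0.19 ± 0.12 (SD, n = 5) in XXF, 0.075 ± 0.26 (n = 4) in XYF, -0.09 ± 0.11 (n = 5) in XXM and -0.15 ± 0.27 (n = 5) in XYM. XYF F9 at -0.27 and XYM 9 at -0.50 were the lowest of their groups, and XYM 15 at 0.24 was the highest of XYM. Among 14040 other genes, those most like this mean over the 19 mice were Tbrg1 (Pearson's r = 0.96), AW112010 (0.94), Traf1 (0.94), Rab19 (0.93), Sh2d1a (0.93), Btbd19 (0.92), Alg5 (0.92), Ctsw (0.91), Lfng (0.91) and Nmi (0.91). Of these 10, 2 were also among the 10 most alike on deviations from the group means, and 6 were without XYF F9 and XYM 9.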

How the data were processed

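According to the authors, paired reads of 51 cycles were aligned to mm10 with Subread and counted per gene with featureCounts, and the expression values were deposited as log2 RPKM. The values fit log2(RPKM + 1). No versions and no tool for the RPKM step were found. A gene without reads was listed at 0.0001. The methods name a KAPA stranded kit and the records a NEBNext Ultra kit. RNA was selected by polyA tail. Whole read counts were recovered from the deposited values for 100% of 21317 genes with a read (within 0.05 reads), and the log2 values themselves were tested with limma 3.58.1: the 14186 genes that reached an RPKM of 0.5 in 4 or more mice, a mean for each group, a spread with a trend on mean expression, and Benjamini-Hochberg adjustment over all 14186. A gene was called at an adjusted p under 0.1 and a fold change over 1.5. Ratios were tested by exact two-sided permutation. The genes named from each list were taken from those called in any comparison and the 3 with the largest difference in XX minus XY over both gonadal sexes and in males minus females, and others named were chosen after their values were seen. The members, the pathway lists and the marker lists were chosen with earlier results of these data known. Leaving out XYF F9 and XYM 9 together and removing the trend on gene length (lowess) were chosen after seeing the data.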

Additional observations from a re-analysis of the deposited data

Results flagged for a closer look

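In XYM 15 the log2(RPKM + 1) of Tap2 was 6.46, and the next of the 5 XYM mice was at 6.09, a gap of 0.800 of the range of the group. In the same mouse the log2(RPKM + 1) of Tapbp was 7.41 and the next was at 7.05, a gap of 0.817 of the range. Both exceeded Dixon's critical value of 0.71 for 5 samples. These were 2 of 108 groups of values examined, and chance alone gives about 1 in 20. The cause was not tested.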

How the results depend on the processing

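The following counts use the call rule of each setting, not adjusted p alone. Of the log2 differences of the members under the other settings, 629 kept their direction and their side of that rule. A further 29 that had not been called changed sign, 8 came to be called and 4 were no longer called. With 1 mouse left out in turn, the same counts were 912, 30, 1 and 7. By adjusted p alone (limma, Benjamini-Hochberg) more values crossed 0.1. In males minus females H2-K1 was under it in 14 of 30 fits and Psmb8 in 5.

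For XX minus XY in females, 196 genes were called, 88 with the compared groups alone, 103 at an adjusted p under 0.05, 345 with no fold threshold, 127 without XYF F9 and XYM 9 together, and 57 to 850 with 1 mouse left out (without XYF F9 and without XYF F7). For males, 420 were called, 211 with no filter on low values, 121 with the compared groups alone, 1027 with array weights, 85 at 0.05, 1115 with no fold threshold, 878 without both mice, and 51 to 1212 with 1 left out (without XXM 2 and without XYM 15). Of the members, Nlrc5 alone was called there, and none (0) with no filter, with the compared groups alone, at 0.05 or with the length trend removed, and 0 to 1 with 1 mouse left out. Over both gonadal sexes, 244 were called, 413 with a pseudocount of 0.1, 983 with no fold threshold, 391 with limma-voom on the recovered reads, and 148 to 518 with 1 left out (without XYF F9 and without XYF F7). For males minus females, 1039 were called, 1700 with a pseudocount of 0.1, 5468 with no fold threshold (members 6) and 1714 with limma-voom. For the difference between the XX minus XY effects, 12 were called, 6 with a pseudocount of 0.1, 6 with no filter, 1911 with array weights, 0 at 0.05, 4 with limma-voom, 779 without both mice and 0 to 1693 with 1 left out (most without XYM 9). There 1 member was called with array weights, 1 without both mice, and 0 to 1 with 1 left out.

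Without both mice the log2 ratio of Psmb9 to Psmb6 in males was -0.37 (past the threshold by exact permutation), and that of H2-K1 to H2-D1 was -0.0162 in females and -0.00458 over both gonadal sexes. With 1 mouse left out, Psmb8 to Psmb5 was -0.0303 to 0.15 in females and -0.0584 to 0.0313 over both, Psmb9 to Psmb6 in males -0.37 to -0.24, Psmb10 to Psmb7 in males minus females -0.0324 to 0.12 and H2-K1 to H2-D1 in females -0.0162 to 0.19. A stricter or absent threshold changes a count by construction. Under the other settings the cause was not tested.

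No paired analysis was possible because mice of different groups share no replicate number. Depth limited the members little, and the 4 or 5 mice per group limit every comparison. Levels before immunization, protein and cell counts were not measured in these data.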
